A study of Vitis vinifera with 24 samples.

Results

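Among 117999 grapevine probes on the array, 12976 were bright, with a mean log2 intensity of 12 or more over all 24 arrays. The steady bright probes described here were the 200 of these bright probes with the smallest standard deviation (SD) over the same 24 arrays, which is 1.54% of the bright probes. Both the mean and the SD that chose them came from the berry groups compared below. Their levels, ranges and differences between those groups are therefore given as descriptions, without a test. The last probe inside the limit was VitusP00015929 with an SD of 0.202000, and the first outside it was VitusP00017705 with an SD of 0.202115. The member closest to the brightness limit was VitusP00263909 with a mean of 12.02, whereas VitusP00065544, with a mean of 11.98 and an SD of 0.19, was left out by brightness alone. In all, 14 dimmer probes had an SD below the limit, with means from 10.38 to 11.98.

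Berries of adult Sangiovese vines, a red wine cultivar grown here as one clone on one rootstock, were sampled as veraison began (BV), when it had ended (EV) and when ripe for harvest (H). Untreated controls (C), vines defoliated by hand before bloom on Julian Day 147 (PB) and vines defoliated by hand at veraison on Julian Day 211 (V) were compared. In both treatments the leaves of the first 6 basal nodes were removed, and V berries were not sampled at BV since that treatment was applied at that stage. Each of the 8 groups had 3 arrays, and each array held RNA of berries without their seeds, pooled from 3 vines of one field block. The 6 C arrays at EV and H carry a label text that describes a cluster thinning experiment, and the other 18 arrays, C at BV included, carry the text of the defoliation experiment. Within EV and within H, this difference in label cannot be told apart from the difference between control and treatment. Within C, it cannot be told apart from the difference between BV and the later stages.

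Veraison is the onset of ripening in the grape berry, when the fruit softens, takes up sugar, loses acid and, in red cultivars, accumulates anthocyanins in the skin. Many transcripts rise or fall across this transition. Transcripts whose level moves little between stages and treatments are commonly used as references, against which the others are expressed in relative quantification by PCR. The brightness of a single probe depends on how well its own sequence hybridises as well as on the amount of its transcript, so brightness is used below to rank and group probes by signal and is not read as the amount of a transcript. The probe identifiers are not paired with genes in the sources used here. The probes are therefore named by identifier, no sequence is printed, and the berry label could not be checked against marker genes. In pooled tissue, fewer cells of a type and less RNA per cell cannot be told apart.

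The steady bright probes moved little over the whole experiment. Their mean log2 intensity had a median of 13.47 and lay between 12.02 and 15.60, and their SD over 24 arrays from 0.11 to 0.20 with a median of 0.18. The median SD was 0.47 for the other 12776 bright probes and 0.77 for all grapevine probes. On the linear scale the coefficient of variation of the steady bright probes was 7.30% to 14.6%, with a median of 12.4%, against a median of 30.7% for the other bright probes. It was below 10% for 15 of the 200. The highest array exceeded the lowest by 1.31-fold to 2.01-fold, with a median of 1.63-fold, where the median was 3.52-fold for the other bright probes and 8.58-fold for all grapevine probes. For 198 of the 200 probes all 24 arrays lay within 2-fold of each other, as they did for 644 of the other bright probes. The highest of the 8 group means exceeded the lowest by a median of 1.26-fold. Means of replicates cannot span more than the single arrays, so these 2 ranges are not compared. All 8 group means lay within 1.3-fold of each other for 133 of the 200.

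Steady probes were found over the whole range of brightness but made up a larger share of the brightest probes. They were 65 of 8254 bright probes with a mean from 12 to 13 (0.787%), 83 of 3805 from 13 to 14 (2.18%), 39 of 856 from 14 to 15 (4.56%) and 13 of 61 from 15 to 16 (21.3%). The median SD of all bright probes fell over the same 4 intervals, from 0.50 to 0.42, 0.36 and 0.28. Within the list the median SD stayed between 0.18 and 0.19 in each interval.

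The distance of each member from the top of the intensity scale was also measured. The highest intensity of an array was between 57501 and 61689. One of the 200 probes, VitusP00156062 with a mean log2 intensity of 15.60, exceeded 90% of the array maximum on at least one array, and it was the highest grapevine probe on both PB BV replicate 1 and PB EV replicate 3. A further limit at 50% of the array maximum was passed by 28 of the 200 on at least one array. The others did not exceed 50% of the array maximum, on the linear scale, on any of the 24 arrays. At the other end, the lowest value of any member was 11.56, above the 99th percentile of 9.62 among the random-sequence probes, which match no grapevine transcript by design. The highest random-sequence value was 15.91, so no member exceeded every random-sequence probe.

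The steadiest probe, VitusP00218811, had a mean log2 intensity of 14.22 and an SD of 0.11. Its 3 values at BV were 14.30, 14.28 and 14.14 in C and 14.06, 14.31 and 14.10 in PB. At EV they were 14.24, 14.37 and 14.19 in C, 14.22, 14.32 and 14.26 in PB, and 14.04, 14.31 and 14.19 in V. At H they were 14.09, 14.18 and 14.29 in C, 14.27, 14.23 and 14.04 in PB, and 14.43, 14.11 and 14.23 in V. All 8 groups overlapped, the lowest and highest arrays both belonged to V, at EV and H, and they differed by 1.31-fold. Its group means ran from 14.15 ± 0.14 (SD, n = 3) in PB at BV to 14.27 ± 0.09 in C at EV.

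The next steadiest, VitusP00245843, had a mean of 14.31 and an SD of 0.12. At BV it measured 14.50, 14.36 and 14.39 in C and 14.51, 14.39 and 14.32 in PB. At EV it measured 14.42, 14.14 and 14.25 in C, 14.30, 14.31 and 14.24 in PB, and 14.21, 14.30 and 14.32 in V. At H it measured 14.26, 14.25 and 14.17 in C, 14.37, 14.21 and 14.29 in PB, and 14.08, 14.37 and 14.59 in V. The C arrays at BV lay above those at H without overlap, by 0.19 between group means, whereas the lowest and the highest array of all 24 were both V at H, with replicate 1 at 14.08 and replicate 3 at 14.59. For this probe the replicates of one group thus spanned more than the 8 group means did.

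Single groups still differed in some members. Between treatments and C at EV, the stage at which the treatments and the control lay furthest apart, the 2 members with the highest and the 2 with the lowest difference between the mean of PB and V and the mean of C were singled out. Since this difference chose them, a gap between their C and treated arrays at EV is largely built in and is only described. How many members separate in this way was not counted. VitusP00042742 had the highest difference, 0.40 on the log2 scale or 1.32-fold. At EV it measured 13.40, 13.42 and 13.44 in C, 13.66, 13.97 and 13.69 in PB, and 13.93, 13.81 and 13.85 in V, so that all 6 treated arrays lay above the 3 control arrays. At BV it measured 13.95, 13.63 and 13.66 in C and 13.65, 13.55 and 13.51 in PB, which overlapped. At H it measured 13.61, 13.70 and 13.51 in C, 14.10, 13.49 and 13.92 in PB, and 13.75, 13.98 and 13.82 in V. There the V arrays lay above C without overlap and 1 PB array fell below all 3 C arrays.

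VitusP00144352 came next, at 0.39 or 1.31-fold. It measured 11.77, 12.20 and 12.20 in C at EV, 12.29, 12.39 and 12.64 in PB, and 12.42, 12.51 and 12.40 in V. The treated arrays again lay above C, but C replicate 1 lay apart from the other two C arrays and, without it, the difference was 0.24. At BV the probe spanned 12.15 to 12.64 in C and 12.21 to 12.61 in PB, and at H the 3 groups had means of 12.42 to 12.44.

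The lowest difference belonged to VitusP00292197, at -0.45, with C 1.37-fold above the treated groups. At EV it measured 13.75, 13.43 and 13.79 in C, 13.31, 13.29 and 12.998 in PB, and 13.20, 13.22 and 13.24 in V, with no overlap between C and the treated arrays. At H it measured 13.53, 13.45 and 13.37 in C, 13.21, 13.10 and 13.31 in PB, and 13.32, 13.25 and 13.34 in V, so C also lay above both treatments there. At BV the arrays of both groups overlapped, with 13.50, 13.53 and 13.43 in C and 13.57, 13.56 and 13.52 in PB.

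VitusP00248481 followed at -0.42, or 1.34-fold. At EV it measured 13.54, 13.49 and 13.81 in C, 13.26, 13.12 and 13.15 in PB, and 13.52, 13.17 and 12.93 in V. The PB arrays lay below all C arrays, whereas V replicate 1 lay within the range of C. At H this probe was higher in PB, with 13.60, 13.68 and 13.46, than in V, with 13.35, 13.32 and 13.17, and C measured 13.30, 13.50 and 13.42.

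With the intensities as deposited, the same comparisons over the whole list had no common direction. For PB against C the median difference was 0.002 at BV, with 103 of 200 probes higher in PB, -0.01 at EV, with 95 higher, and 0.01 at H, with 107 higher. For V against C it was -0.02 at EV, with 91 higher in V, and -0.002 at H, with 99 higher. About as many steady probes thus lay above as below C in each comparison. This balance depended on the scaling of the arrays. When each array was centred on the mean of the bright probes, which moved the median of all grapevine probes at EV to -0.18 for PB and -0.19 for V, the median difference of the steady probes at EV was -0.21 for PB, with 27 of 200 higher, and -0.23 for V, with 24 higher. With median centring and scaling by the median absolute deviation, 66 and 65 were higher at EV and 134 were higher in V at H. As deposited, no member differed by 2-fold or more in any of the 16 comparisons of groups made. The SD limit that chose the members leaves no room for such a difference, so nothing can be read from this.

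The size of the differences did vary with the comparison. The median absolute difference of the steady probes was 0.06 for PB against C at BV, with single probes from -0.19 to 0.22. It was 0.13 for PB against C at EV, from -0.48 to 0.40, and 0.14 for V against C at EV, from -0.44 to 0.44. At H it was 0.08 for PB, from -0.41 to 0.36, and 0.12 for V, from -0.50 to 0.41. Among the other bright probes the median absolute difference was 0.10 at BV, 0.55 for PB and 0.52 for V at EV, and 0.18 for PB and 0.33 for V at H, so that in both sets it was lowest for PB at BV and highest at EV. Both treatments were set against the same C arrays at each stage, so the PB and V values are not independent. An absolute difference of means also grows with the spread of replicates. In the steady probes the SD within a group was 0.23 in C at EV, against 0.15 in C and 0.13 in PB at BV. How much of the larger values at EV came from this spread was not tested. At EV and H, label and treatment cannot be told apart. Set against each other, PB and V differed in the steady probes by a median of 0.08 at EV and 0.10 at H.

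Differences between stages were close in size to those at EV. From BV to EV the median absolute difference of the steady probes was 0.13 in C and 0.10 in PB. From BV to H it was 0.14 in C, with single probes from -0.49 to 0.45, and 0.13 in PB, from -0.39 to 0.50. From EV to H it was 0.14 in C, 0.13 in PB and 0.10 in V. Over the same interval from BV to H, the other bright probes moved by a median of 0.54 in C and 22.7% of them by 2-fold or more. In C the label text also changes between BV and the later stages, so stage and label cannot be told apart in these C values.

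Grouping the arrays accounted for a median of 39.4% of the variation of a steady probe over the 24 arrays, with a range from 6.99% to 82.5%. The median was 64.1% for the other bright probes and 56.4% for all grapevine probes. With 8 groups of 3 arrays, a sizeable share arises even where no group differs, so these shares are not read as effects of the groups. A model fitted with limma to all grapevine probes, with an F test over the 8 groups, called 36.7% of them when an adjusted p (Benjamini-Hochberg) below 0.02 was combined with a range of group means of at least 1 on the log2 scale, and 36.9% by the adjusted p alone. Of the other bright probes 4498 (35.2%) were called and of the steady probes 0 by either rule, with a lowest adjusted p of 0.247. Nothing can be read from that 0, because the rule kept the probes that differed least between the same groups.

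The remaining variation was not spread evenly over the arrays. The SD of the steady probes around their own means was highest on C EV replicate 2 (0.26), followed by PB H replicate 2 and C EV replicate 1 (both 0.22), V H replicate 3 and C EV replicate 3 (both 0.21), and was lowest on V EV replicate 1 (0.13). The 3 C arrays at EV held the most extreme value of 73 of the 200 probes (36.5%), where an equal share for 3 arrays is 12.5%, and the 3 V arrays at EV held 5 (2.5%). C EV replicate 2 held the highest value of 32 probes, and C EV replicate 1 the lowest of 29. The arrays of this control group therefore departed in both directions, and not by a common shift.

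The mean over the 200 probes moved less from array to array than the mean of the other bright probes. Choosing probes for a small SD over these arrays favours this, so it is only described. Its deviation ran from -0.08 on C EV replicate 1 to 0.06 on C EV replicate 2, with an SD over the 24 arrays of 0.035, against 0.097 for the other bright probes. On C EV replicate 1 the other bright probes lay 0.33 below their means. That array also had the highest level of random-sequence probes, 7.15, followed by C EV replicate 3 with 6.73, PB H replicate 2 with 6.56, PB H replicate 1 with 6.38 and C EV replicate 2 with 6.31. The lowest level was 5.77, on C BV replicate 3. The part of this background level in the spread of the steady probes was not tested.

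Within groups the replicates of the steady probes differed by a pooled SD of 0.16. By group this SD was 0.15 in C and 0.13 in PB at BV, 0.23 in C, 0.16 in PB and 0.12 in V at EV, and 0.15 in C, 0.18 in PB and 0.16 in V at H. The other bright probes had the widest replicates in the same group, C at EV, with 0.66, and the narrowest in V at EV, with 0.24. C at EV was also the group that most often lay at the edge, with the highest group mean for 39 and the lowest for 42 of the 200, whereas PB at BV was highest for 17 and lowest for 20.

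The first component held a smaller share of the variation in the steady probes than in the other sets. The rule kept probes with little variation over these same arrays, which favours such a result, so it is only described. The first principal component of their 24 values, centred per probe, held 18% of their variation and the second 12.5%, whereas the first component held 42.9% for the other bright probes and 36.8% for all grapevine probes. On the first component of the steady probes C EV replicate 2 lay furthest out, with a score of 3.05, followed on that side by PB H replicate 2 with 1.91 and C H replicate 3 with 1.56. In the order of all grapevine probes by brightness, a steady probe spanned a median of 3104 places over the 24 arrays, 2.63% of the order, where the other bright probes spanned a median of 13999. No member fell below the 83.5th percentile on any array. Being chosen for a high mean and a small SD, the members had little room to move in this order.

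Whether steadiness carries over to arrays that had no part in the choice was asked by applying the same rule to the arrays of all stages but one and measuring the chosen probes on the stage left out. A further list left out the 6 C arrays at EV and H, whose labels differ. Each list had 200 probes, and it shared 93 with the steady bright probes when EV was left out, 90 when H was, 128 when BV was and 86 when the 6 C arrays were. Only 28 probes were in all 4 lists, and all 28 were among the 200 steady bright probes. Whether the deposited values had been normalised over all arrays together is not stated in the sources used. Apart from any such shared step, the arrays left out had no part in the choice.

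On the arrays left out, the chosen probes stayed steadier than the other bright probes, and in 3 of the 4 lists, all but the one that left out BV, their SD was larger than on the arrays that chose them. The list chosen without EV had a median SD of 0.15 on the 15 arrays that chose it and 0.26 on the 9 arrays at EV, where the other bright probes had 0.42. In the list chosen without H the median SD was 0.15 on the choosing arrays and 0.20 at H, against 0.36 for the other bright probes. In the list chosen without BV it was 0.17 and then 0.15 on the 6 arrays at BV, against 0.22. The list chosen without the 6 C arrays went from 0.14 to 0.32 on these, against 0.50. Of the 200 probes in each list, 86%, 90%, 79.5% and 87%, in that order, lay below the median of the other bright probes.

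The chosen probes were brighter than the other bright probes, and brighter probes had smaller SDs, so the same values were taken within intervals of brightness. With EV left out, the median SD at EV was 0.25 for 71 chosen probes with a mean from 12 to 13, against 0.45 for the other bright probes of that interval. It was 0.27 against 0.39 from 13 to 14, with 74 chosen probes, and 0.25 against 0.36 from 14 to 16, with 55. With BV left out the gap narrowed with brightness, from 0.15 against 0.23 in the lowest interval to 0.16 against 0.18 in the highest. The chosen probes were thus steadier in each interval of these 2 lists, and the same held for the lists that left out H or the 6 C arrays.

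Some chosen probes were not steady elsewhere. The highest SD on the arrays left out was 1.09 at EV, 0.65 at H, 1.37 at BV and 1.13 over the 6 C arrays. Between the choosing arrays and those left out, the mean of a chosen probe shifted by a median of 0.10 for EV, 0.21 for H and 0.16 both for BV and for the 6 C arrays, where the other bright probes shifted by 0.22, 0.38, 0.36 and 0.38. A shift of 1 or more was measured for 4 probes at H and 2 at BV. Steadiness over part of the berry stages thus did not assure it at the stage left out for every probe.

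Differences between treated and control arrays in such lists could then be tested at the stage left out. At EV and at H, treatment cannot be told apart from the difference in label text, so these are not tests of treatment alone. With limma fitted to all grapevine probes over the 9 arrays at EV, PB against C called 15.6% of all probes at an adjusted p below 0.02 and a difference of at least 1, 8.31% of the other bright probes, and 0 of the 200 chosen without EV. The lowest adjusted p in the list was 0.025. At an unadjusted p below 0.05 there were 18 chosen probes (9%), 15 higher and 3 lower in PB, against 41.4% of all probes. V against C called 14.1% of all probes, 6.89% of the other bright probes and 0 of the 200, with a lowest adjusted p of 0.021, and at an unadjusted p below 0.05 there were 15 chosen probes (7.5%), 12 higher and 3 lower in V, against 39.6% of all probes. Both comparisons used the same C arrays.

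The differences behind these tests were smaller in the chosen probes but did not vanish. For PB against C at EV the median absolute difference was 0.28 in the 200 chosen probes, 0.56 in the other bright probes and 0.82 in all. Single chosen probes ran from -1.03 to 1.73, and 8 of them differed by 2-fold or more. For V against C the 3 medians were 0.25, 0.53 and 0.79, the chosen probes ran from -0.87 to 1.59, and 5 differed by 2-fold or more. The probes called over the whole array differed by a median of 2.39 for PB and 2.45 for V, more than any chosen probe, and of all probes that differed by 2-fold or more 37.0% and 34.8% were called, so most probes that differed by 2-fold or more were not called anywhere on the array. The calls depended on the arrays and the model. Without C EV replicate 2, 13 of the 200 (6.5%) were called in each comparison, and the background rose to 38.9% of all probes for PB and 37.3% for V. With any other single array left out the background for PB was 6.25% to 12.2%, and that for V was 5.73% to 11.5%. In a fit of all 8 groups with the level of the random-sequence probes as a covariate, 6 probes of the whole array were called for PB and 3 for V, so under that model the 0 of 200 had no background to be read against.

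At H and at BV the background allowed no reading of the calls. With limma, 0% of all probes were called for PB against C at H, V against C at H and PB against C at BV, and 0 of the chosen 200 in each. At an unadjusted p below 0.05 there were 0 of 200 chosen probes in each of the 3 comparisons, against 6.00%, 9.47% and 2.57% of all probes. The median absolute difference was 0.10 in the chosen and 0.19 in the other bright probes for PB at H, 0.17 and 0.35 for V at H, and 0.06 and 0.10 for PB at BV.

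Between the 6 C arrays, H against EV was tested in the list chosen on the 18 other arrays. Limma called 0% of all probes and 0 of the 200. That background rested on the setting, since 8.63% of all probes were called without C EV replicate 2 and 19.7% in the fit of all 8 groups, where 3 of the 200 were called. At an unadjusted p below 0.05 there was 1 of the 200 (0.5%) against 24.4% of all probes. The median absolute difference was 0.25 in the chosen probes, 0.50 in the other bright probes and 0.79 in all, with single chosen probes from -1.06 to 1.43 and 4 at 2-fold or more.

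Several grapevine probes can belong to one gene, and probes with neighbouring identifiers behaved alike over the array, so the neighbours of the steady probes in identifier order were examined. Of the probes just before a steady probe 132 of 200 (66.0%) were bright, and of those just after it 109 (54.5%). For the other bright probes these shares were 49.7% and 49.9%, and 11.0% of all grapevine probes were bright. The share fell with distance and was 16.0% and 14.5% at 4 places before and after a steady probe. Brightness was thus shared with near neighbours.

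Neighbours were also steadier than the average grapevine probe. The median SD was 0.42 for the probe before and 0.56 for the probe after a steady probe, against 0.59 and 0.61 around the other bright probes and 0.77 over all. An SD below 0.3 was found in 42 (21.0%) of the probes before and 23 (11.5%) of those after, against 7.55% and 8.15% around the other bright probes and 2.08% of all grapevine probes. Among the 132 bright probes just before a steady probe, the median SD was 0.36 and 4 were themselves members. Before the other bright probes it was 0.46. Among the 109 bright probes just after a steady probe, the median SD was 0.41 and 4 were members. After the other bright probes it was 0.45, so the gap was narrower on that side. Pearson's r between a steady probe and its neighbour over the 24 arrays had a median of 0.24 before and 0.15 after, where the other bright probes had 0.48 and 0.42. The steady probes were chosen for a small spread, and the points share arrays and normalisation, so these values are given as descriptions.

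Only 4 pairs of neighbouring grapevine probes were both in the list. VitusP00029145 and VitusP00029146, the one pair with consecutive numbers, had SDs of 0.16 and 0.19 and correlated at 0.23. VitusP00087645 and VitusP00087647 correlated at 0.65, VitusP00144710 and VitusP00144713 at 0.28, and VitusP00049823 and VitusP00049825 at -0.18. Since no table used here assigns these probes to genes, whether a pair measures 1 transcript is not known.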

How the data were processed

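The authors deposited 1 normalised fluorescence intensity per probe and array, on a linear scale, for 1-colour NimbleGen grapevine arrays hybridised with RNA from berry pools. Scanning, background correction and normalisation software are not given in the sources used here. The quartiles over all rows matched between arrays and arrays shared many exact values, whereas the median of the grapevine rows ran from 8.10 to 8.49. Whether all arrays had been normalised together is not known. Of 139363 rows, 117999 were grapevine probes, 19091 were random-sequence probes and 2273 held no value. Log2 of the intensity was taken for every probe, with no further normalisation or filter.

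The list was chosen by mean (12 or more) and SD, and it and the other lists were chosen with earlier results of these data known. The named probes were the 2 with the smallest SD and, among members, the 2 highest and 2 lowest for the mean of PB and V minus C at EV. Tests used limma 3.58.1 in R 4.3.3 (lmFit, eBayes) on all grapevine probes, with Benjamini-Hochberg adjustment, and were tried on simulated data. The simulated data held 50 changed probes of each size among 117999, far fewer than the 18411 called for PB against C at EV. They therefore do not measure how sensitive that comparison was on the real arrays. Of the probes that differed by 2-fold or more at EV, only 37.0% for PB and 34.8% for V were called. A lack of calls therefore does not show that probes were unchanged. Replicates were arrays of separate vine pools, and their number limits the precision. Alternatives covered the cutoffs, the measure of spread, rescalings, the model, the level of random-sequence probes as a covariate, a block for replicate number and leaving out arrays. Identical arrays were not found, the correlation between arrays being at most 0.979.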

Additional observations from a re-analysis of the deposited data

How the results depend on the processing

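Which 200 probes were chosen depended on the measure of spread, the arrays and the limits. The lists shared 182 of 200 with the linear coefficient of variation, 149 with the range, 198 with quantile normalisation over grapevine probes, 138 with median centring and MAD scaling, 189 with a mean limit of 11 and 135 with one of 13. The 100 kept with 100 probes were members by construction. The lists shared 62 of 200 with the median absolute deviation (MAD) in place of the SD, 104 with the SD of the 8 group means, 73 with the SD within groups, 128 after centring on the bright probes, 101 without the 3 C arrays at EV, 86 with the 18 defoliation-labelled arrays only, and 42 with the SD of ranks, an alternative chosen after seeing the data. Leaving out 1 array kept 149 (without C EV replicate 1) to 196. Centring on the bright probes raised the median absolute difference of the steady probes by over 1.5 times at EV. Against C it rose from 0.13 to 0.21 for PB and from 0.14 to 0.23 for V. With 1 array left out the median absolute differences ran from 0.06 to 0.08 for PB against C at BV, 0.14 to 0.17 for PB and 0.14 to 0.16 for V at EV, 0.08 to 0.13 for PB and 0.10 to 0.15 for V at H, 0.14 to 0.16 from BV to EV in C, and 0.13 to 0.16 in C and 0.13 to 0.14 in PB from BV to H. Centring on the bright probes moved the 4 named differences at EV to 0.19, 0.18, -0.66 and -0.62 without a change of sign.

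The F test called 43255 of all probes, 23497 with the random-probe level as covariate, and 32767 (without C EV replicate 3) to 57974 (without C EV replicate 2) with 1 array left out. Again nothing can be read from the 0 steady probes called in each. In the list chosen without EV, PB against C called 5 at an adjusted p below 0.05 with no minimum difference, 3 with trend and robust estimation, 7 in the 8-group fit, 2 with 400 probes kept and 1 after median centring with MAD scaling. In the first 3 settings 26.4%, 16.4% and 21.9% of all probes were called. V against C called 2 at an adjusted p below 0.05, 4 in the 8-group fit, and 1 each with trend and robust estimation, after median centring with MAD scaling, with quantile normalisation over grapevine probes, and without the dimmest 25% of probes. Of all probes 24.1% were called at an adjusted p below 0.05, 19.6% in the 8-group fit and 14.7% with trend and robust estimation. With 1 array left out both ran from 0 to 13, the 13 being without C EV replicate 2. Over all probes these comparisons called 7374 to 45917 and 6763 to 44049 with 1 array left out, and 6 and 3 in the 8-group fit with the random-probe level as covariate. In the list chosen on the 18 arrays, H against EV in C called 3 in the 8-group fit and 0 otherwise. Over all probes it called 3708 at an adjusted p below 0.05, 1364 with trend and robust estimation, 23295 in the 8-group fit and 0 to 10179 (without C EV replicate 2) with 1 array left out. The lists for H and BV stayed at 0 under all alternatives run. The cause of these changes was not tested.

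Replicate numbers did not pair the arrays: over 84 same-numbered pairs the correlation of deviations from the group means ran from -0.38 to 0.31 with a median near 0. With the replicate number as a block the F test called 39393 of all probes, the comparisons at EV called 14567 and 13195, and the lists kept 0 calls.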
